A study of Mus musculus with 21 samples.

Results

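The p53 target genes described here are 10 genes listed by symbol, Cdkn1a, Ccng1, Plk2, Bax, Bbc3, Eda2r, Phlda3, Trp53inp1, Mdm2 and Sesn1. They were chosen as known transcriptional targets of p53, with earlier results of these data known. The genes were matched by Ensembl identifier between the authors' tables of comparisons and their table of per-library values. For 8 of the 10 genes the per-library values equalled the authors' tables, and these 8 were tested here. Of 25127 genes with per-library values, 17989 were tested at P21 and 16833 at P60. Cdkn1a was absent from the per-library values and Plk2 had other values there. Both were therefore taken from the authors' deposited tables, which list 18101 genes at P21 and 16928 genes at P60.

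The transcription factor p53, encoded by Trp53 in the mouse, is held at low protein levels until DNA damage or another stress stabilises it. It then binds response elements built from a pair of decamers and switches on genes that stop the cell cycle, promote apoptosis, restrain growth signalling or limit p53 itself. In the central nervous system p53 is known as a mediator of neuronal and glial death after injury. Its own activity is set mainly at the protein level, so the RNA of its targets is commonly used to read it.

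The study asked what changes in the spinal cord when TDP-43, an RNA-binding protein encoded by Tardbp, is removed from mature oligodendrocytes of C57BL/6 mice. The knockout mice (cKO) carried Cnp-Cre; Tardbp-fl/fl, the heterozygous mice (cHET) carried Cnp-Cre; Tardbp-fl/+, and the controls carried Tardbp-fl/fl without Cre. Cnp-Cre acts in cells of the oligodendrocyte lineage, and whether the other cells of the cord keep the gene was not tested here. Each genotype was sampled in 4 mice on postnatal day 21 (P21), 2 female and 2 male, and in 3 mice at P60. The P60 cKO mice were males of 61 to 64 days, the P60 cHET mice were males of 60 to 65 days, and the P60 controls were females of 74 days. At P60, genotype can therefore not be told apart from sex and age in comparisons with control, whereas cKO and cHET mice were of the same sex and nearly the same age. The library kit was Illumina TruSeq RNA Sample Prep Kit for P21 mice, whereas at P60 it was NEXTflex Rapid Directional RNA-Seq Kit, so age and kit cannot be told apart. Each library came from its own numbered mouse.

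Levels are normalized scaled reads per base, a value per gene and per unit of length that the authors scaled within each age, so levels are compared between genes of 1 age and not between ages. They summed to 26.9 M to 29.2 M (M for mega) per library at P21 and 12.5 M to 13.8 M at P60, and their read depth is unknown. Tardbp was at 1639 to 1880 in P21 cKO cords, at 2030 to 2236 in cHET cords and at 2155 to 2415 in controls. At P60 the cKO cords were at 783 to 831, the cHET cords at 906 to 932 and the control cords at 828 to 937. Against cHET it fell at P21 by 0.29 ± 0.06 on the log2 scale (SE; limma, adjusted p = 0.0025), and the P60 fall by 0.20 ± 0.06 passed in limma (adjusted p = 0.040) but not in the authors' deposited table (q = 0.063). Against control it fell at P21 by 0.37 ± 0.06 (adjusted p = 0.00033), whereas at P60 -0.14 ± 0.06 did not pass (adjusted p = 0.14). The cKO and cHET values did not overlap at either age. These gene-level values of whole cord do not resolve the floxed part of the gene.

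Against cHET, some p53 target genes were called higher in cKO cords at each age. In limma only Bax of the 8 tested genes was called at both ages. Its P21 call was lost in 5 of 12 fits without 1 library. At P21 the pro-apoptotic genes Bbc3 and Bax rose, by 0.72 and 0.29 on the log2 scale, and in the authors' deposited table Cdkn1a and Ccng1 also passed. At P60 Eda2r, Ccng1, Phlda3 and Bax rose, by 2.01, 0.81, 0.64 and 0.51, and in the authors' deposited table Cdkn1a rose by 1.36. Mdm2, Sesn1 and Trp53inp1 did not pass against cHET at either age, and neither did Plk2 in the authors' deposited table. None of the 8 tested genes fell in any comparison of cKO cords.

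In counts, 2 of the 8 tested genes rose in cKO against cHET cords at P21 (limma, Benjamini-Hochberg adjusted p under 0.05), where 12.6% of all 17989 genes tested rose. At P60, 4 of 8 rose, against 13.4% of 16833 genes. Against control, 5 of 8 rose at P21 (14.6% of all genes) and 5 of 8 at P60 (14.5%). The median log2 difference of the 8 genes against cHET was 0.21 at P21 and 0.51 at P60, beside -0.01 and 0.00 for all genes tested. Against control the medians were 0.36 and 0.62, beside -0.01 and 0.00. In both directions together, 22.6% of all genes were called against cHET at P21 and 25.0% at P60, and against control 26.9% at P21 and 25.9% at P60. Of the genes called against control, 54.2% at P21 and 55.8% at P60 were higher in cKO cords. After quantile normalization these shares were 43.5% and 45.2%, and the counts of p53 targets that rose were 5 of 8 at both ages.

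In the authors' deposited table, which covers all 10 genes, 4 rose against cHET at P21 (q under 0.05), where 13.0% of all genes rose, and 5 at P60, against 13.6%. Against control the authors' deposited table has 6 rising at P21 (15.2% of all genes) and 6 at P60 (14.8%), and none falling in either comparison. The comparisons with cHET and with control share the cKO libraries and are not independent of each other.

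**Figure D1:**
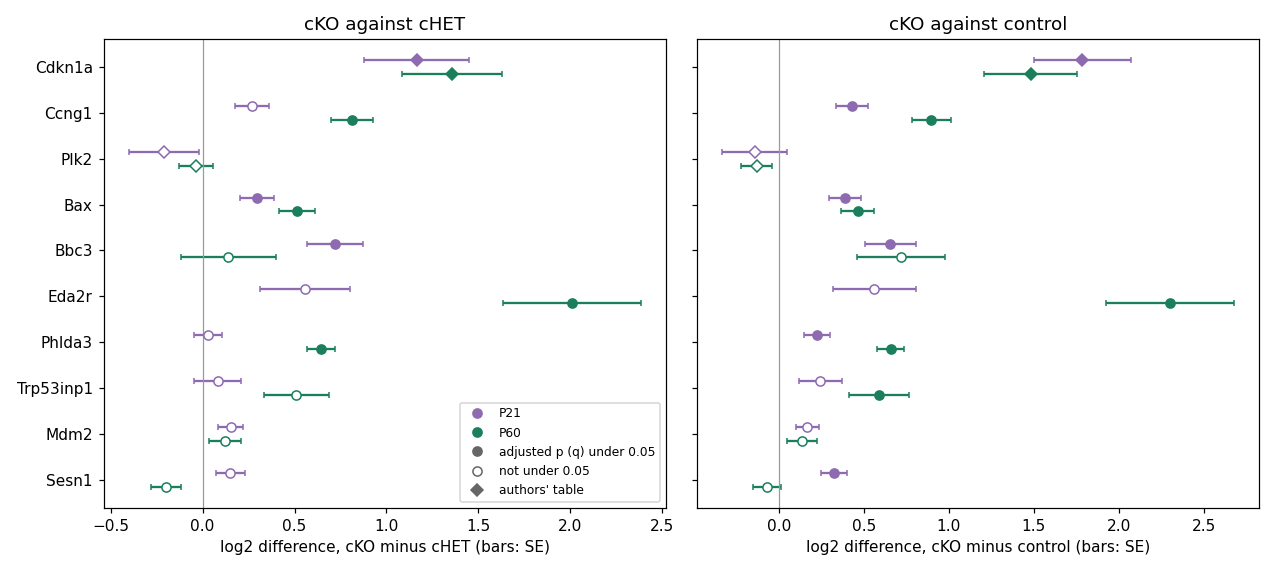
Log2 differences of the 10 p53 target genes, cKO minus cHET on the left and cKO minus control on the right, with P21 above P60 for each gene and bars for the SE. Circles are from limma, diamonds are the authors' values for Cdkn1a and Plk2, and filled symbols mark an adjusted p or q under 0.05. The Cdkn1a symbols lie past 1 in both panels, and the P60 symbols of Eda2r, Ccng1 and Phlda3 lie to the right of their P21 symbols.

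Promoter sequences are shown because p53 acts through elements of this kind close to the starts of several of these genes. RefSeq promoters (GRCm38.p6) of 250 bases before and 50 after a start were given for 9 of the 10 genes, in 13 windows, and Trp53inp1 had none. The p53 decamer was searched by its consensus on both strands, and the full element as 2 adjoining decamers with no spacer, at most 3 mismatches and the central C and G of each decamer kept. A full element stood in at least 1 window of 4 of the 9 genes, Cdkn1a, Ccng1, Bbc3 and Sesn1, and a single decamer in 5. Over all 27018 genes with a window, 1.63% had a full element and 9.56% a single decamer, and over all 32841 windows the shares were 1.38% and 8.36%. The full element contains decamers, so the searches overlap. The genes were chosen as p53 targets, so these counts are a description of the list, and a match is not a measured binding site.

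The 250 bases before a start are printed 5′ to 3′ on the strand of the gene, in lower case, for the 4 genes with a full element. Capitals mark the full element and, in Cdkn1a, also a single decamer upstream of it. The windows are chr17:29090729-29090978 (+) for Cdkn1a, chr11:40755287-40755536 (-) for Ccng1, chr7:16309333-16309582 (+) for Bbc3 and chr10:41887189-41887438 (+) for Sesn1.
Cdkn1a: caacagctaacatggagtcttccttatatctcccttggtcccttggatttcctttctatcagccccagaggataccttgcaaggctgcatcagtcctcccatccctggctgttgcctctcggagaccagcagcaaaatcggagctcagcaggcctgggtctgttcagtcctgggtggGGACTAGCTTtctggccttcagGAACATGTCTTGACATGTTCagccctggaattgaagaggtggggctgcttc
Ccng1: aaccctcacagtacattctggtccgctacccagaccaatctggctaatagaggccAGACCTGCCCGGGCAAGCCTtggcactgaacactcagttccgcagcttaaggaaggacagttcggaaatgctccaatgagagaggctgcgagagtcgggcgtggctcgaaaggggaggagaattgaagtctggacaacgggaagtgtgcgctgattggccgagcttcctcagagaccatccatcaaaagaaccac
Bbc3: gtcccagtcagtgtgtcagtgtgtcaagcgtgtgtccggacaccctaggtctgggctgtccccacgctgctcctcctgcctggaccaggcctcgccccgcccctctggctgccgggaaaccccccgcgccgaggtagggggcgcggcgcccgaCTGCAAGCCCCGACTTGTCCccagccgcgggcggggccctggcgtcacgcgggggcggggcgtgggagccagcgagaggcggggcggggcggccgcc
Sesn1: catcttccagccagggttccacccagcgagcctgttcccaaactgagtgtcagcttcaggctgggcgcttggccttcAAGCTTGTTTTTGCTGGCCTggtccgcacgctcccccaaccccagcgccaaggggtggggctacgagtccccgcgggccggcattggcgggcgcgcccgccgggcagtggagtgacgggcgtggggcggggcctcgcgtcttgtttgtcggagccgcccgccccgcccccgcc
Positions are counted from the start that each 250-base stretch precedes, with the base before it as -1. The element of Cdkn1a begins at -51 and that of Ccng1 at -195, each with 1 mismatch to the consensus. Those of Bbc3, from -97, and Sesn1, from -173, have 3 mismatches each. Mdm2 and Bax each have a single decamer, from -186 and -201. In the windows of Phlda3, Plk2 and Eda2r, and in those at other starts of Cdkn1a, Bbc3 and Sesn1, neither form was found.

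The 8 genes with per-library values differed widely in level. In P21 cKO cords Phlda3 averaged 3675 ± 396 (SD, n = 4), followed by Sesn1 at 1913 ± 139, Ccng1 at 1756 ± 251, Bax at 1175 ± 135, Trp53inp1 at 1056 ± 178 and Mdm2 at 1051 ± 69.8. Bbc3 was at 188 ± 36.2 and Eda2r at 32.4 ± 7.35. The values of Sesn1 and Ccng1 overlapped, as did those of Bax, Trp53inp1 and Mdm2, so their order is not set. In P60 cKO cords the order was Phlda3 at 1099 ± 46.6 (SD, n = 3), Ccng1 at 1011 ± 147 and Sesn1 at 708 ± 74.4, and here Phlda3 and Ccng1 overlapped. In P60 cHET and control cords Sesn1 was the highest, at 810 ± 44.2 and 740 ± 21.6, and Eda2r the lowest, at 8.12 ± 1.52 and 6.69 ± 2.32.

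**Figure D2:**
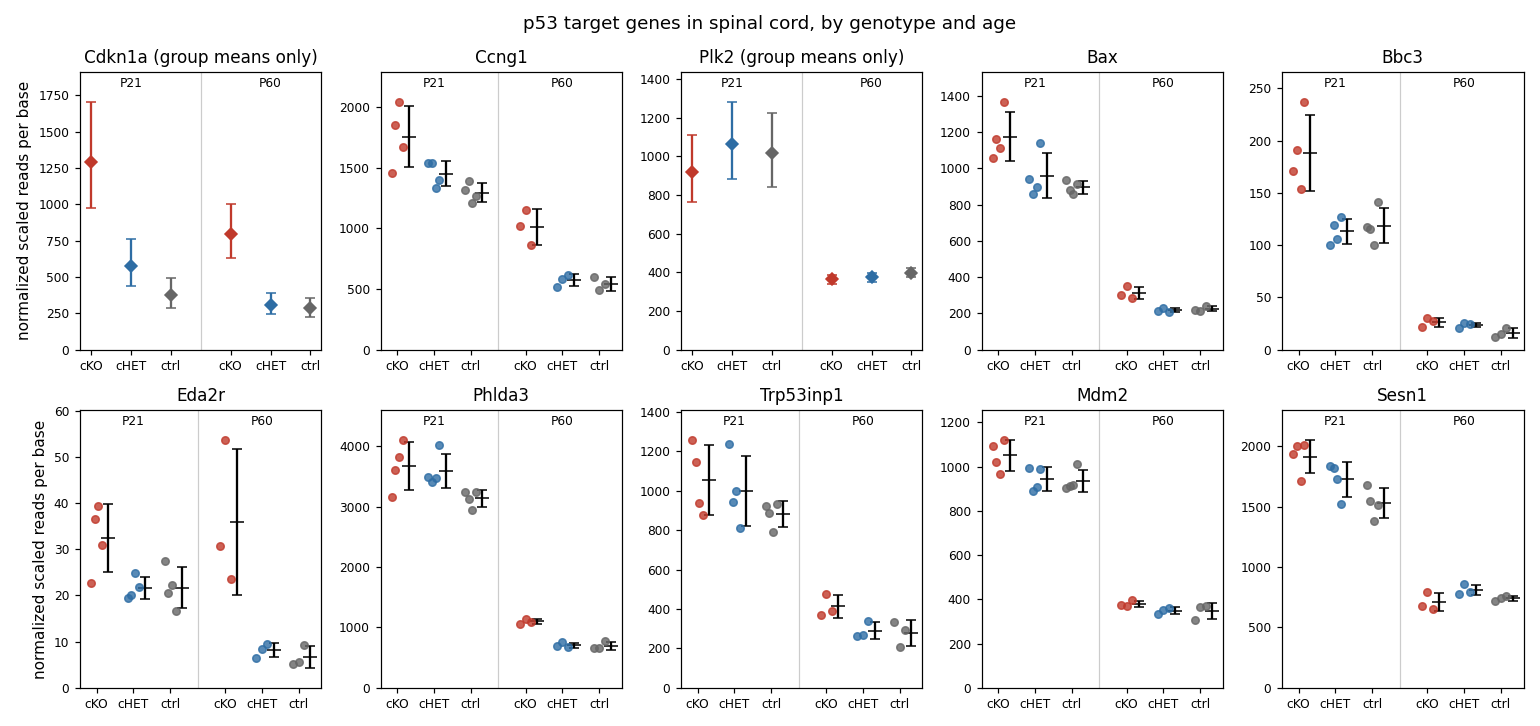
Level in normalized scaled reads per base, with cKO, cHET and control (ctrl) side by side at P21 and P60. Points are single libraries with mean and SD beside them. For Cdkn1a and Plk2 diamonds are geometric means computed from the authors' deposited tables and bars 1 residual SD on the log2 scale. The P60 cKO points of Ccng1, Phlda3, Bax and Eda2r lie above all cHET and control points of that age.

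Of the genes that act on the cell cycle, Cdkn1a (ENSMUSG00000023067; GRCm38 chromosome 17, 29090976 to 29100727) encodes p21, which inhibits cyclin-dependent kinases and is the best known p53 target. Only group values could be given for it. From the authors' deposited table its geometric mean was 1290 in P21 cKO cords, 575 in cHET and 374 in control cords. At P60 the authors' deposited table gives 793 in cKO, 309 in cHET and 284 in control cords. In the authors' deposited table Cdkn1a rose 2.24-fold against cHET at P21 (q = 0.00040) and 2.56-fold at P60 (q = 5.8e-06). Against control the authors' deposited table has a rise of 3.44-fold at P21 (q = 7.0e-09) and 2.79-fold at P60 (q = 6.0e-07). The residual SD between libraries in the authors' deposited table was 0.40 log2 units at P21 and 0.33 at P60. The P60 and P21 differences against cHET, from the authors' deposited table, differed by 0.19 ± 0.39 log2 units (SE), and those against control by -0.30 ± 0.39, so no change with age was resolved. Another annotated gene lies across Cdkn1a on the opposite strand, and whether counting used strand is not given in the sources used here.

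Ccng1 (ENSMUSG00000020326; chromosome 11, 40748552 to 40755311) encodes cyclin G1, which recruits a phosphatase to Mdm2. At P60 its level was 1020, 1153 and 860 in cKO, 517, 584 and 617 in cHET, and 595, 487 and 540 in control cords. Every P60 cKO library lay above every cHET and control library. The difference was 0.81 ± 0.12 against cHET (adjusted p = 0.00037) and 0.90 ± 0.12 against control (adjusted p = 0.00018). At P21 the level was 1457, 1851, 2045 and 1670 in cKO, 1540, 1536, 1332 and 1395 in cHET, and 1316, 1388, 1209 and 1264 in control cords. One cKO library, replicate 1, lay among the cHET libraries, and all 4 lay above control. The P21 difference was 0.43 ± 0.09 against control (adjusted p = 0.0030). Against cHET it was 0.27 ± 0.09 and did not pass in limma (adjusted p = 0.051), although it did in the authors' deposited table (q = 0.038) and without cKO replicate 1 (0.35, adjusted p = 0.0075). It also passed in limma with a pseudocount of 5, a minimum mean of 50, median-of-ratios scaling, quantile normalization or sex as a covariate (adjusted p = 0.024 to 0.0495), and it did not with no filter or with only the 2 groups fitted (adjusted p = 0.079 and 0.095).

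Plk2 (ENSMUSG00000021701; chromosome 13, 110395046 to 110400844) encodes a Polo-like kinase that is induced by p53 and by neuronal activity. In the authors' deposited table it did not pass in any comparison. The authors' deposited table gives a log2 difference of -0.21 ± 0.19 against cHET at P21 (q = 0.49) and -0.04 ± 0.09 at P60 (q = 0.83). Against control the authors' deposited table gives -0.14 ± 0.19 at P21 (q = 0.65) and -0.13 ± 0.09 at P60 (q = 0.33). The per-library values, which differ from those tables, overlapped between cKO and cHET cords at both ages.

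Among the genes of apoptosis, Bbc3 (ENSMUSG00000002083; chromosome 7, 16308393 to 16318205) encodes PUMA, a BH3-only protein that neutralises the survival proteins of the Bcl2 family. At P21 its level was 171, 191, 153 and 237 in cKO, 100, 120, 106 and 127 in cHET, and 117, 115, 100 and 141 in control cords. All 4 cKO libraries lay above all 8 others, and Bbc3 was the only one of the 8 genes whose P21 cKO and cHET values did not overlap, beside 12.7% of all genes that were higher without overlap. The difference was 0.72 ± 0.15 against cHET (adjusted p = 0.0031) and 0.66 ± 0.15 against control (adjusted p = 0.0050). At P60 the level was 21.2, 29.8 and 27.1 in cKO, 20.9, 25.2 and 24.3 in cHET, and 12.1, 14.7 and 20.9 in control cords. The cKO and cHET values overlapped, and the difference of 0.14 ± 0.26 did not pass (adjusted p = 0.75). Against control the P60 difference of 0.72 ± 0.26 did not pass either (adjusted p = 0.066), although every cKO library lay above control.

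Bax (ENSMUSG00000003873; chromosome 7, 45461697 to 45466898) encodes the protein that forms pores in the mitochondrial outer membrane. It was the only one of the 8 genes called against both cHET and control at both ages. At P60 its level was 299, 348 and 285 in cKO, 211, 230 and 210 in cHET, and 219, 214 and 241 in control cords. The cKO libraries lay above all others, by 0.51 ± 0.10 against cHET (adjusted p = 0.0026) and 0.46 ± 0.10 against control (adjusted p = 0.0049). At P21 the level was 1059, 1163, 1112 and 1368 in cKO, 943, 860, 896 and 1138 in cHET, and 935, 878, 856 and 911 in control cords. The P21 cKO libraries lay above control, but cHET replicate 4 lay among them. The P21 difference was 0.39 ± 0.09 against control (adjusted p = 0.0068) and 0.29 ± 0.09 against cHET (adjusted p = 0.035). The P21 call against cHET was lost without any 1 of cHET replicates 1, 2 and 3 or cKO replicates 2 and 4 (adjusted p = 0.069 to 0.11), with no filter on low genes (0.053) and with only the 2 groups fitted (0.078). A protein-coding gene model on the same strand, Gm45808, overlaps Bax, so reads could be split between them.

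Eda2r (ENSMUSG00000034457; chromosome X, 97333840 to 97377216) encodes a receptor of the tumour necrosis factor receptor family that binds ectodysplasin A2. It had the lowest level of the 8 genes in 5 of the 6 groups and, at P60, the largest difference among them. At P60 its level was 30.6, 53.6 and 23.5 in cKO, 6.53, 8.30 and 9.55 in cHET, and 5.09, 5.64 and 9.35 in control cords. The lowest cKO library exceeded the highest of the others, although the cKO libraries differed widely among themselves (coefficient of variation 43.9%). Eda2r rose by 2.01 ± 0.38 against cHET (adjusted p = 0.0024) and by 2.30 ± 0.38 against control (adjusted p = 0.00099). With a pseudocount of 5 in place of 0.5, these were 1.58 and 1.76. At P21 the level was 22.8, 36.6, 39.4 and 30.8 in cKO, 19.5, 20.04, 24.8 and 21.8 in cHET, and 27.4, 20.5, 22.3 and 16.6 in control cords. The groups overlapped through cKO replicate 1, and neither 0.56 ± 0.24 against cHET (adjusted p = 0.13) nor 0.56 ± 0.24 against control (adjusted p = 0.11) passed. Without cKO replicate 1 the difference from control was 0.72 (adjusted p = 0.047).

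Phlda3 (ENSMUSG00000041801; chromosome 1, 135766119 to 135769136) encodes a pleckstrin homology domain protein that restrains the survival kinase Akt. At P60 its level was 1054, 1147 and 1097 in cKO, 689, 751 and 670 in cHET, and 665, 658 and 772 in control cords. The P60 cKO values lay close together and above all others, with 0.64 ± 0.08 against cHET (adjusted p = 0.00012) and 0.66 ± 0.08 against control (adjusted p = 0.00010). At P21 the level was 3167, 3610, 3817 and 4108 in cKO, 3485, 3409, 3472 and 4020 in cHET, and 3242, 3132, 2943 and 3238 in control cords. The P21 cKO and cHET values overlapped, with the cKO range reaching both lower and higher, and with a difference of 0.03 ± 0.08 (adjusted p = 0.85). All 4 P21 cHET libraries lay above all 4 controls. The P21 difference between cKO and control was 0.22 ± 0.08 (adjusted p = 0.045), and that call was lost in 10 of 12 fits without 1 library (adjusted p = 0.053 to 0.13), with cHET replicate 4 and cKO replicate 1 as the exceptions.

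Trp53inp1 (ENSMUSG00000028211; chromosome 4, 11156431 to 11174379) encodes a stress-induced protein that takes part in p53 phosphorylation and in autophagy. At P60 its level was 371, 477 and 391 in cKO, 264, 267 and 340 in cHET, and 336, 205 and 295 in control cords. The cKO libraries lay above all others. The difference from control was 0.59 ± 0.18 (adjusted p = 0.031), a call lost without control replicate 2 or 3 or cKO replicate 2 or 3 (adjusted p = 0.053 to 0.12). Against cHET it was 0.51 ± 0.18 and did not pass (adjusted p = 0.059), and it passed without control replicate 1 or 2 or cHET replicate 3 (adjusted p = 0.017 to 0.041). At P21 it was 1259, 1147, 938 and 879 in cKO, 1236, 942, 1001 and 814 in cHET, and 925, 889, 789 and 933 in control cords. These groups overlapped, with differences of 0.08 ± 0.13 against cHET and 0.24 ± 0.13 against control (adjusted p = 0.71 and 0.19, in that order).

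Of the feedback and growth regulators, Mdm2 (ENSMUSG00000020184; chromosome 10, 117688875 to 117710758) encodes the ubiquitin ligase that marks p53 for degradation. At P21 its level was 1095, 1019, 969 and 1121 in cKO, 993, 889, 909 and 991 in cHET, and 901, 913, 915 and 1010 in control cords. At P60 it was 374, 369 and 396 in cKO, 332, 352 and 363 in cHET, and 305, 367 and 368 in control cords. The P60 cKO libraries lay above the others by narrow margins, and the P21 groups overlapped. The log2 differences were 0.15 ± 0.07 and 0.17 ± 0.07 against cHET and control at P21, and 0.12 ± 0.09 and 0.14 ± 0.09 at P60, and none passed (adjusted p = 0.084 to 0.36). The P21 difference from control passed in limma with sex as a covariate (adjusted p = 0.039) and without cKO replicate 3 (0.21, adjusted p = 0.046).

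Sesn1 (ENSMUSG00000038332; chromosome 10, 41809935 to 41908424) encodes a sestrin, which restrains the growth kinase complex mTORC1. At P21 its level was 1935, 1998, 1710 and 2008 in cKO, 1834, 1820, 1727 and 1518 in cHET, and 1676, 1543, 1381 and 1514 in control cords. All P21 cKO libraries lay above control, by 0.32 ± 0.08 (adjusted p = 0.0068), and overlapped cHET, with 0.15 ± 0.08 (adjusted p = 0.20). At P60 the level was 677, 792 and 653 in cKO, 777, 860 and 794 in cHET, and 717, 744 and 759 in control cords. Here the sign was negative, with -0.20 ± 0.08 against cHET and -0.07 ± 0.08 against control, and neither passed (adjusted p = 0.099 and 0.58). Without cKO replicate 2 the P60 difference from cHET was -0.28 (adjusted p = 0.022). An unclassified gene model on the same strand overlaps Sesn1.

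The change in these differences between ages was tested directly, as the P60 difference minus the P21 difference over all 21 libraries. Against cHET, 1 of 8 genes differed, Phlda3, by 0.62 ± 0.11 (adjusted p = 0.0026), where 3.20% of all genes differed and 1.49% in the upward direction. Against control, Phlda3 differed by 0.43 ± 0.11 (adjusted p = 0.031) and Eda2r by 1.74 ± 0.42 (adjusted p = 0.018), beside 4.48% of all genes and 2.35% upward. The Phlda3 change against control was not called in 9 of 21 fits without 1 library (adjusted p = 0.054 to 0.095), namely without P21 control replicates 1, 2 or 4, P21 cKO replicates 1 or 2, P60 control replicates 1 or 2, or P60 cKO replicates 2 or 3. The Eda2r change was not called without P60 cKO replicate 2 (1.41, adjusted p = 0.067). Against cHET, neither Ccng1 (0.55 ± 0.15, adjusted p = 0.057) nor Eda2r (1.45 ± 0.42, adjusted p = 0.066) passed. For Bbc3 the sign was opposite, -0.58 ± 0.27 against cHET (adjusted p = 0.32), and for Sesn1 it was -0.35 ± 0.12 (adjusted p = 0.12). Against control the Sesn1 change was -0.39 ± 0.12 and did not pass in limma (adjusted p = 0.060). The same Sesn1 change passed with a minimum mean of 50 (adjusted p = 0.049) and with quantile normalization (adjusted p = 0.037). It also passed in 4 of 21 fits without 1 library (adjusted p = 0.023 to 0.039). Library kit and age cannot be told apart in this test.

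In cHET against control cords none of the 8 genes passed in limma at P21 (0.0111% of all genes were called) or at P60 (0.0178%), and none of the 10 passed in the authors' deposited table (0.193% of all genes at P21 and 0.0827% at P60). An unadjusted p under 0.05 was found for 2 of 8 genes at P21, beside 7.14% of all genes, and for 1 of 8 at P60, beside 5.42%. The P21 differences ran from -0.06 for Bbc3 to 0.19 for Phlda3, and the P60 differences from -0.05 for Bax to 0.58 for Bbc3. In the authors' deposited table Cdkn1a was 1.54-fold higher in P21 cHET than in control cords, which did not pass (q = 0.71). At P21 Phlda3 was higher in cHET without overlap, beside 3.12% of all genes, and at P60 so was Sesn1, beside 6.17%.

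Counted by overlap of the libraries, 6 of 8 genes were higher without overlap in P60 cKO than in cHET cords, beside 20.6% of all genes, and 7 of 8 than in control cords, beside 22.0%. At P21 the counts were 1 of 8 against cHET, beside 12.7% of all genes, and 4 of 8 against control, beside 15.0%. Some libraries were the highest or lowest of their group for many of the 8 genes, in control and cHET as well as cKO cords. P60 cKO replicate 2 was the highest of the 3 for 7 of the 8 genes, all but Mdm2. P21 cKO replicate 4 was the highest of the 4 for 5 genes, Phlda3, Bbc3, Bax, Mdm2 and Sesn1, and replicate 1 was the lowest for Ccng1, Phlda3, Bax and Eda2r. In P60 cHET cords replicate 1 was the lowest for 6 genes. In controls P60 replicate 3 was the highest for 6 genes and P21 replicate 3 the lowest for 6. Library sums were highest of their group in P60 cKO 2 (13.80 M), P21 cKO 4 (29.11 M) and P60 control 3 (13.02 M). They were lowest in P21 cKO 1 (26.91 M) and P21 control 3 (27.82 M), and P60 cHET 1 lay between the others of its group. The same ranking was not computed for all genes, and the part of the library sums in it was not tested. No gene passed for sex at P21, where male minus female differences ran from -0.16 for Bbc3 to 0.21 for Eda2r (adjusted p = 0.36 to 0.82).

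**Figure D3:**
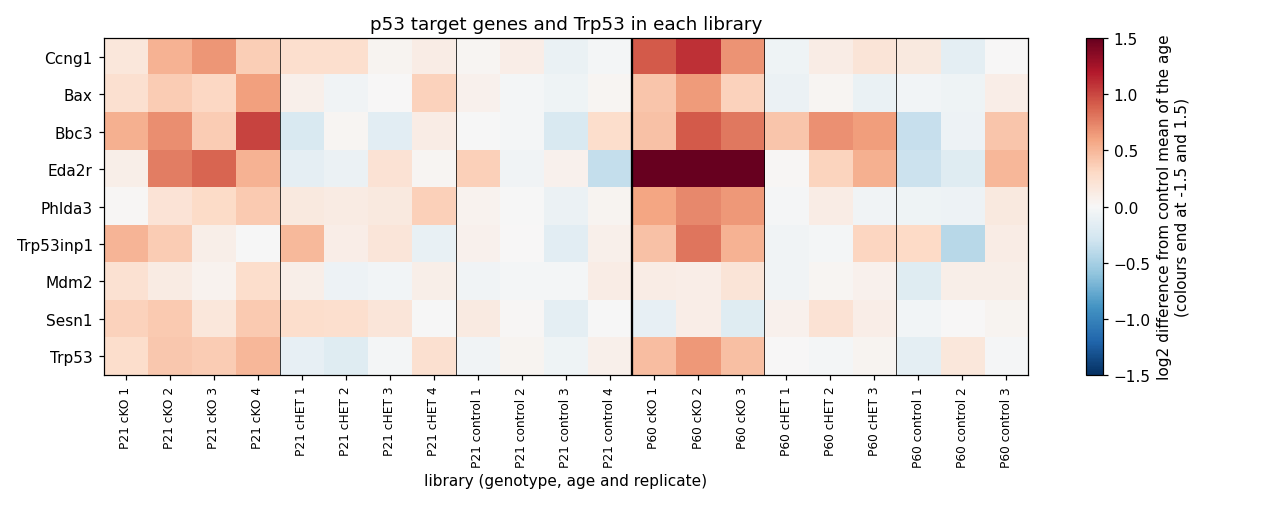
Each cell is the log2 difference of a library from the mean of the controls of its age, for the 8 p53 target genes with per-library values and Trp53. Columns run from cKO to cHET to control at P21 and then at P60. The P60 cKO columns are darkest for Eda2r and Ccng1, and the P21 cKO columns for Bbc3 and Eda2r.

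Trp53, the gene of p53 itself, also rose in cKO cords. It averaged 1318 ± 88.3 in P21 cKO (SD, n = 4), 999.97 ± 134 in cHET and 1009 ± 49.9 in control cords. At P60 it averaged 689 ± 54.1 in cKO (SD, n = 3), 482 ± 13.6 in cHET and 481 ± 54.8 in control cords. Against cHET the difference was 0.40 ± 0.09 at P21 (adjusted p = 0.0033) and 0.51 ± 0.09 at P60 (adjusted p = 0.0016), and the values did not overlap at either age.

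Of 23 listed genes of p53 and its regulators, 21 were tested, of which 4 rose and 2 fell in cKO against cHET cords at P21, and 2 rose and 2 fell at P60. Among all genes tested, 12.6% rose and 9.97% fell in this comparison at P21, and 13.4% rose and 11.5% fell at P60. The median differences of the regulators were 0.01 at P21 and 0.02 at P60, beside -0.01 and 0.00 for all genes. At P21 Trp63, a p53 relative, rose by 0.51 ± 0.11 (adjusted p = 0.0045) and Ppp1r13l, the p53 inhibitor iASPP, by 0.82 ± 0.19 (adjusted p = 0.0053). Ppp1r13l did not differ from control by a passing margin at P21 (0.22, adjusted p = 0.43). Trp53bp1, a DNA repair protein that binds p53, fell at P21 by 0.36 ± 0.09 (adjusted p = 0.0088), and it also fell at P60, by 0.28 ± 0.09 (adjusted p = 0.033).

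Among 30 other p53 targets, 26 were tested. In cKO against cHET cords 7 rose and none fell at P21, where 12.6% of all genes rose and 9.97% fell. At P60, 10 rose and 1 fell, where 13.4% of all genes rose and 11.5% fell. Gdf15, counted as rising at P60 against cHET and against control, reached the minimum level of 5 there only in cKO libraries. The median differences against cHET were 0.15 at P21 and 0.32 at P60, beside -0.01 and 0.00 for all genes. Against control 10 rose and 4 fell at P21, where 14.6% of all genes rose and 12.3% fell, and 8 rose and 1 fell at P60, where 14.5% rose and 11.4% fell. The 4 that fell at P21 were Rrm2b, Tigar, Tob1 and Zmat3, which act in nucleotide supply, glycolysis, growth restraint and RNA binding. Fas, a death receptor, was at 132 ± 15.9 in P21 cKO and 61.8 ± 14.2 in cHET cords (1.11 ± 0.24, adjusted p = 0.0039). Dcxr, a carbonyl reductase, was at 476 ± 22.9 in P21 cKO and 279 ± 11.98 in cHET cords (0.77 ± 0.10, adjusted p = 3.7e-05), and Btg2, an antiproliferative regulator, at 504 ± 53.6 in cKO and 275 ± 27.4 in cHET cords (0.87 ± 0.13, adjusted p = 0.00017). In P21 control cords Btg2 averaged 370 ± 65.2, between cHET and cKO, and its rise against control was also called. At P60 Fas, Dcxr and Btg2 also rose against cHET, by 0.88, 0.76 and 0.61 (adjusted p = 0.0060, 0.0038 and 0.0052). Rps27l, a ribosomal protein paralog whose reads may be shared with near-identical copies, rose by 0.47 at P21 and 0.70 at P60 (adjusted p = 0.0052 and 0.0011).

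**Figure D4:**
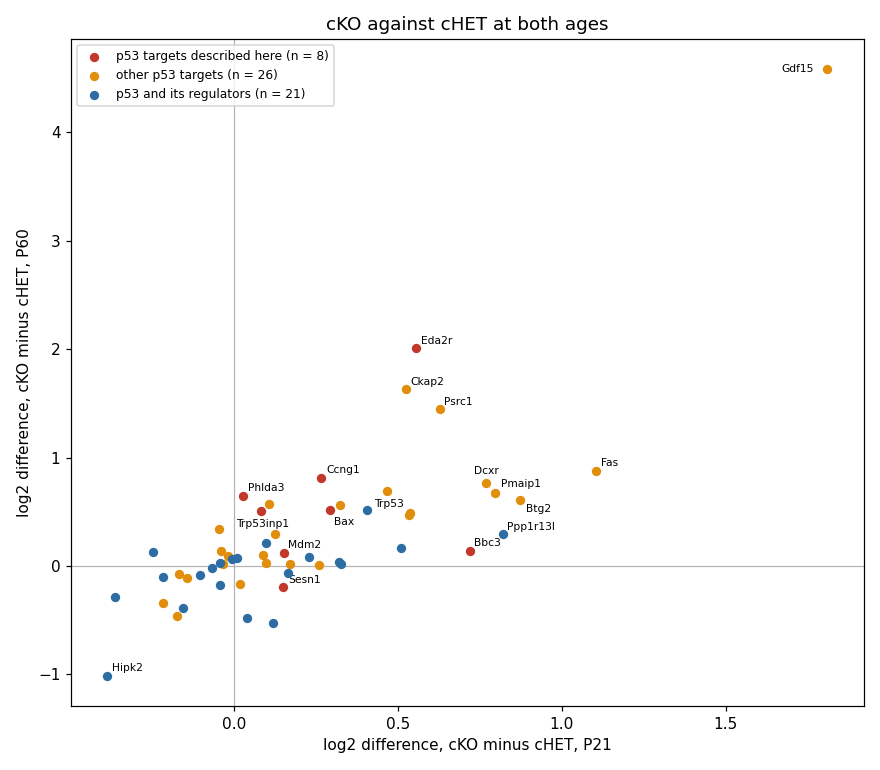
Log2 difference between cKO and cHET cords at P21 (x axis) and P60 (y axis) for the 8 p53 target genes, 26 other p53 targets and 21 regulators. Each point is a gene. On the P60 axis Eda2r (2.01) is the highest of the 8 genes, and of all points only Gdf15 lies above it. Gdf15 reached the minimum level of 5 at P60 only in cKO libraries. Bbc3 (0.72) is the farthest right of the 8 on the P21 axis, with a P60 difference of 0.14.

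Of 15 tested genes of the Bcl2 family and intrinsic apoptosis, outside Bax and Bbc3, 6 rose and none fell in cKO against cHET cords at P21, and 7 rose and none fell at P60. The medians were 0.22 at P21 and 0.27 at P60, and 12.6% and 13.4% of all genes rose. The genes that rose include survival genes. Bcl2 and Mcl1, which block Bax, rose by 0.39 ± 0.07 and 0.35 ± 0.08 at P21 (adjusted p = 0.0011 and 0.0048), and by 0.73 ± 0.12 and 0.85 ± 0.07 at P60 (adjusted p = 0.00092 and 3.8e-06). Bcl2a1b, a survival gene of blood and myeloid cells with near-identical copies, was at 330 ± 63.9 in P21 cKO and 25.2 ± 4.14 in cHET cords (3.68 ± 0.23, adjusted p = 3.9e-08).

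Among family relatives of the 10 genes, such as other Polo-like kinases and sestrins, 13 were tested at P21, of which 1 rose and 3 fell against cHET, where 12.6% of all genes rose and 9.97% fell, and of 12 tested at P60, 1 rose and 3 fell, where 13.4% rose and 11.5% fell. Cdkn1c, a cyclin-dependent kinase inhibitor of the same family as Cdkn1a, was at 215 ± 51.7 in P21 cKO, 1299 ± 169 in cHET and 1108 ± 130 in control cords, and fell by 2.62 ± 0.15 against cHET (adjusted p = 2.0e-08). At P60 it was at 18.5 ± 1.33 in cKO, 168 ± 32.3 in cHET and 117 ± 11.5 in control cords, and fell by 3.14 ± 0.16 (adjusted p = 2.0e-07). Trp53inp2 fell by 0.39 ± 0.06 against cHET at P21 (adjusted p = 0.00047) but differed from control by only -0.12 ± 0.06 (adjusted p = 0.19). Phlda1 fell by 0.47 ± 0.13 and the mitotic kinase gene Plk1 rose by 0.89 ± 0.26 at P21 (adjusted p = 0.020 and 0.026).

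Markers of several cell types also differed between cKO and cHET cords. In that comparison 12.6% of all genes rose and 9.97% fell at P21, and 13.4% rose and 11.5% fell at P60. All 13 microglial and myeloid markers rose in cKO against cHET cords at both ages, and their summed level was 64612 to 89772 in P21 cKO cords, against 14287 to 17408 in cHET and 14128 to 15755 in control cords. At P60 the sum was 31916 to 43238 in cKO cords, against 7990.4 to 8609.9 in cHET and 6671 to 8048 in control cords. Of 8 astrocyte markers 6 rose at P21 and 4 at P60, and of 8 proliferation markers 5 and 6, with sums of 911 to 2022 in P21 cKO cords, against 681 to 937 in cHET and 622 to 769 in control cords. Of 4 oligodendrocyte precursor markers 2 and 4 rose. Of 8 mature oligodendrocyte markers 4 fell and 2 rose at P21, and 6 fell and 2 rose at P60, and of 8 neuronal markers 7 and 4 fell. Of 3 Schwann cell markers 1 fell at each age. None of the peripheral blood leukocyte markers tested passed, and their sum stayed at 9.08 to 77.3 over all groups, with Ly6g at 0 in every library of 4 of the 6 groups. The part of these shifts in the p53 target differences was not tested, and in whole cord fewer cells of a type and less RNA per cell cannot be told apart.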

How the data were processed

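RNA-seq of whole spinal cord was analysed from 21 mice in 6 groups, with genotype, age and sex taken from the labels. Per the submitters' processing notes the authors used kallisto 0.43.0 and sleuth 0.28.1 on GRCm38, and the strand setting is not given in the sources used here. The deposited per-library signal is in normalized scaled reads per base, scaled by the authors within each age, so depth is unknown. The authors' deposited tables give effects on the natural log scale, here divided by ln 2 for log2 differences, and p-values and q-values per gene computed by the authors. Group means of Cdkn1a and Plk2 were computed from the mean and effects in these tables, and the same step returned the per-library geometric means of the other 8 genes.

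Values were taken to log2(value + 0.5), and folds on that scale understate changes of low genes. A gene was kept where 4 or more P21 libraries, or 3 or more P60 libraries, reached 5. All 3 genotypes of 1 age entered a single fit in limma 3.58.1 (trend, 2-sided moderated test, R 4.3.3), and adjusted p-values are Benjamini-Hochberg over all genes tested, with a threshold of 0.05. SE is the moderated standard error and SD the spread of deposited values over libraries. The change with age was an interaction in a fit of all 21 libraries. The fit was tested on simulated data. Where 1 library is left out of a group, the rest of the fit supplies the spread.

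The p53 targets, the other gene lists and the markers were chosen with earlier results of these data known. Of the other lists, up to 4 genes per list called against cHET with the smallest p, and Trp53, are named, except 1 gene that is not reported here. Gdf15, Rrm2b, Tigar, Tob1, Zmat3 and Tardbp were named after their values were seen. Genes most like a member were the 3 with the smallest root mean square over 4 log2 differences from control, among genes averaging at least 20 at both ages. Alternatives were pseudocounts of 5 and 0.05, no filter, a minimum mean of 50, quantile normalization, median-of-ratios scaling, fits of the 2 groups compared, sex as a P21 covariate, the authors' test and removal of each library. Removal of P60 control 1 with P60 cHET 3 was added after the data were seen.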

Additional observations from a re-analysis of the deposited data

Results flagged for a closer look

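The difference between cKO and cHET cords of Phlda3, a restrainer of the kinase Akt, changed between ages, with a P60 difference 0.62 log2 units above that at P21 (adjusted p = 0.0026). Against control the change of Phlda3 was 0.43 (adjusted p = 0.031). The difference of Eda2r, a receptor for ectodysplasin A2, from control changed by 1.74 log2 units between the ages (adjusted p = 0.018). Age cannot be told apart from library kit in all 3, and in the 2 against control it cannot be told apart from the sex and age of the P60 controls either.

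In 2 of 24 gene and group sets of 4 libraries, 1 library lay apart from its group by Dixon's ratio, and chance gives about 1 set in 20. These were P21 cHET replicate 4 for Phlda3, at 4020 against 3409 to 3485 in the other 3, and P21 control replicate 4 for Mdm2, at 1010 against 901 to 915 in the other 3.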

How the results depend on the processing

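Of 1371 recomputed values of the 8 genes, 1270 kept their direction and their side of the threshold, 36 fell short of it, 34 passed it and 31 changed sign, all 31 for differences that were not called. No paired analysis was possible because each mouse had its own number and no number was shared between groups. The count of genes that rose in P21 cKO against cHET cords was 1 with no filter and 1 with only the 2 groups fitted, since Bax was no longer called, 2 with a pseudocount of 0.05, and 1 to 3 without 1 library. It was 3 with quantile normalization, a pseudocount of 5, median-of-ratios scaling, a minimum mean of 50, the authors' test and sex as a covariate, Ccng1 being added. Without 1 library the other counts were 4 to 6 (P21 cKO against control), 4 to 5 (P60 against cHET and against control) and 0 (cHET against control at both ages). The count for the change with age against cHET was 2 with a mean of at least 50, with quantile normalization and without P60 control 1 and cHET 3, Ccng1 being added, and 1 to 3 without 1 library. Against control it was 1 with no filter, 1 without P60 control 1 and cHET 3, where Phlda3 was at 0.40 (adjusted p = 0.069), and 1 to 4 without 1 library. Sesn1 was added to it, as a negative change, with a minimum mean of 50 and with quantile normalization. The cause was not tested.

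Signs changed as follows. Bbc3 in P60 cKO against cHET cords was -0.046 with quantile normalization, and its change with age against control was -0.053 with a pseudocount of 5 and -0.11 without P60 control 1 and cHET 3. Phlda3 in P60 cHET against control was -0.0083 with quantile normalization, and Mdm2 there was -0.10 without P60 control 1 and cHET 3. Without 1 library, cHET against control ran from -0.14 to 0.025 for Bbc3, -0.11 to 0.12 for Eda2r and -0.0082 to 0.054 for Mdm2 at P21, and from -0.076 to 0.059 for Mdm2, -0.036 to 0.086 for Phlda3 and -0.13 to 0.23 for Trp53inp1 at P60. P21 cKO against cHET ran from -0.028 to 0.097 for Phlda3 and -0.011 to 0.19 for Trp53inp1. The change with age ran from -0.068 to 0.0024 for Mdm2 against cHET, and against control from -0.12 to 0.013 for Mdm2, -0.0084 to 0.15 for Bax and -0.11 to 0.27 for Bbc3. Depth is unknown, and 3 or 4 mice a group limit the precision.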

Other observations

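Gdf15, a stress-induced cytokine gene among the other p53 targets, had the largest P60 difference of that list. At P60 it reached the minimum level of 5 only in cKO libraries, so the size of that difference depends on the pseudocount of 0.5. The authors' deposited tables give no q for Gdf15 at P60. Its level was 23.1 to 31.1 in P60 cKO cords and 0 to 1.19 in cHET cords, and it was listed at 0 in all 3 control libraries. The P21 cKO cords were at 8.29 to 76.9, the cHET cords at 4.42 to 11.8 and the control cords at 1.14 to 8.72, and the difference from cHET did not pass there (1.81 ± 0.74, adjusted p = 0.099).

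For each p53 target called against cHET, the genes with the most similar differences from control over the 4 contrasts of cKO and cHET cords at both ages were looked up among 13857 genes. The closest to Bax was Edem2, which acts in degradation of misfolded glycoproteins, at a root mean square difference of 0.022 log2 units, followed by Pgls and Ss18l2. The closest to Eda2r was Tnxb, an extracellular matrix gene, at 0.048, followed by Gpr17, a gene of oligodendrocyte precursors, at 0.15. Ccng1 was closest to Rgs20 (0.054) and Id4 (0.055), Phlda3 to Gm4034 (0.046) and Sept7 (0.050), and Bbc3 to Gli2 (0.089) and Cracr2b (0.095). Each set of 4 contrasts shares its control libraries.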
